A study of Mus musculus with 16 samples.

Results

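The insulin-like growth factor (IGF) system was followed through 10 genes in C2C12 cells, an established line of mouse myoblasts that form multinucleated myotubes in low serum. They were the ligand genes Igf1 and Igf2, the receptor genes Igf1r and Igf2r, and the binding protein genes Igfbp2, Igfbp3, Igfbp4, Igfbp5, Igfbp6 and Igfbp7. They were taken by gene symbol, and all 10 were found among the 49585 genes of both count tables. RNA-seq counts of 16 libraries were used, in 8 groups of 2. The first table held WT C2C12 cells and AMPK-KO C2C12 cells, in which Prkaa1 and Prkaa2, the genes of the catalytic subunits of the energy sensor AMPK, had been disrupted with CRISPR-Cas9, each as myoblasts at d0 and after 8 days of differentiation in horse serum (d8). The second table held AMPK-KO cells at d0 only, in which both copies of the DNA demethylase gene Tet2 carried an inserted FLAG-BirA tag and EGFP sequence. The protein was otherwise unchanged (TET2-WT) or carried the phospho-mimicking change S97E (TET2-S97E). Each of these genotypes had 2 clones with 2 libraries per clone. All 8 libraries shared the loss of AMPK and the inserted tag and EGFP sequence. A clone, not a library, was the independent unit of a genotype. The labels did not say which knockout line an AMPK-KO library came from, nor that replicates were separate cultures, so p-values measured only the spread between these libraries, which may be technical.

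IGF-I and IGF-II are small secreted growth factors that drive both the proliferation of myoblasts and their differentiation, and IGF-II is produced by differentiating myoblasts themselves. Both act through the receptor tyrosine kinase encoded by Igf1r, while the mannose 6-phosphate receptor encoded by Igf2r takes up IGF-II for breakdown in lysosomes. Most IGF in extracellular fluid is held by binding proteins, which carry it, keep it from the receptor or release it when they are cleaved. IGFBP-5 is the binding protein best known from muscle cells, and IGFBP-7 binds IGF only weakly.

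The study concerned TET2, which acts on methylated cytosine in CG dinucleotides, so the promoters of 3 binding protein genes are shown, Igfbp3, which was nearly silent in AMPK-KO cells, and the neighbours Igfbp2 and Igfbp5, which were lowest and highest in different clones. In the RefSeq windows from 250 bases before to 50 after the start (GRCm38.p6), capitals mark CG, a motif that reads the same on both strands. Igfbp3 lies at chr11:7213874-7214173 (minus strand), Igfbp2 at chr1:72824230-72824529 (plus strand) and Igfbp5 at chr1:72874816-72875115 (minus strand).
Igfbp3: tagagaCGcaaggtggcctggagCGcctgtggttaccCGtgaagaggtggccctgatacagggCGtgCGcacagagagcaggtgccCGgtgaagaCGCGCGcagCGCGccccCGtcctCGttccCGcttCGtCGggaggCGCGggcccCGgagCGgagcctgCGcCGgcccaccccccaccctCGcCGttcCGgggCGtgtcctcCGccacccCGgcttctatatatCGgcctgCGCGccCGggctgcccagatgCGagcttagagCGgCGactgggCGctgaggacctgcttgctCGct
Igfbp2: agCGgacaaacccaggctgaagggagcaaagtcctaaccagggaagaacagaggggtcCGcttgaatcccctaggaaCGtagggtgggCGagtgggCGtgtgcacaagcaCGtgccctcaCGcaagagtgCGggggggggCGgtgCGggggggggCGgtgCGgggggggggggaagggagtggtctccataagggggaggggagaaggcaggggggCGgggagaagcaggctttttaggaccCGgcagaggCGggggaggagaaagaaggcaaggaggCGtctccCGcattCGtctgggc
Igfbp5: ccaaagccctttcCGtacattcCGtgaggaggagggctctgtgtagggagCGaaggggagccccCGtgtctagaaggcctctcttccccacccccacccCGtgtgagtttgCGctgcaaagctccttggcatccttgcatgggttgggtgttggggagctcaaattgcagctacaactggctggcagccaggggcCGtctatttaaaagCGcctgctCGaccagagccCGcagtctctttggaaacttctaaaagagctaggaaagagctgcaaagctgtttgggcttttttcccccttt
The Igfbp3 window held 37 CG, more than 94.4% of the 32851 windows of 27025 genes, against 18 for Igfbp2 (70.3%) and 10 for Igfbp5 (56.5%), with a median of 7 over all windows. Across the 14 windows of the 10 members, Igf1r had 48 CG, Igf2r 34, Igfbp7 33 and Igf1 6. The windows of Igf2 held 2 to 24 CG, and another window of Igfbp2 held 14. Igfbp2 and Igfbp5 are neighbours on chromosome 1, with 5457 bases and no annotated gene between them. The E-box CAGCTG, its own reverse complement, occurred in the Igf1 window and in no other member's, and in 16.3% of all windows. TATAAA on either strand occurred in the windows of Igfbp4 and Igfbp6, and in 13.6% of all windows. Methylation itself was not analysed here.

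The libraries of the WT and AMPK-KO table held 17883417 to 24663079 counts and those with tagged TET2 19801909 to 37790358. Prkaa1 read 159 and 159 CPM (read counts normalised to library size, scaled by the trimmed mean of M-values within each table) in WT d0 and 79.7 and 78.0 in AMPK-KO d0, and was lower in AMPK-KO at d0 (log2 fold change -1.01, adjusted p = 0.0116) and at d8 (-0.60, adjusted p = 0.0419). Prkaa2 was also lower, with log2 fold changes of -2.43 at d0 (adjusted p = 0.0527) and -2.96 at d8 (adjusted p = 0.0190). These counts cover whole genes and therefore do not show the edited bases. The 5 myoblast genes, led by Des, summed to 974 to 3899 CPM over the 16 libraries. Of these, AMPK-KO at d0 was lower for Myod1 (log2 fold change -3.29, adjusted p = 0.0147) and for Pax7 (adjusted p = 0.00863), which had 167 and 169 counts in WT d0, 0 and 1 in AMPK-KO d0, 138 and 177 in WT d8, and 0 and 2 in AMPK-KO d8 (adjusted p = 0.00629 at d8). Myod1 rose from d0 to d8 in AMPK-KO (3.01, adjusted p = 0.0217). Of other cell types, 5 adipocyte genes, led by Cebpa, summed to 25.9 to 116 CPM with Adipoq at 0 to 6 counts, 4 endothelial genes, led by Tek, to 1.21 to 13.0 with Pecam1 at 0 to 8 counts, and 4 immune genes, led by Csf1r, to 0.261 to 1.21 with Ptprc at 0 to 1 counts.

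Some libraries stood apart from their replicate. WT d0 replicate 1 held 377 Igf1 counts against 15 in replicate 2, and 8710 Igfbp7 counts against 1573. In AMPK-KO d0, replicate 1 held 101 Igf2 counts and 308 Igfbp4 counts against 9 and 47 in replicate 2. Mitochondrial genes took 1.36% of counts in WT d0 replicate 1 and 0.568% in replicate 2, 1.16% and 0.666% in AMPK-KO d0, 1.43% and 0.97% in WT d8, and 0.977% and 0.683% in AMPK-KO d8. In each of these groups replicate 1 had the higher share, and its part in the results was not tested. The summed level of 9 myotube genes (Myog, Mymk, Mymx, Myh3, Myh1, Ckm, Acta1, Tnnt3 and Atp2a1) was 1802 and 10642 CPM in the AMPK-KO d8 replicates, against 5794 and 8897 in WT d8. In WT d0 it was 171 and 115, and in AMPK-KO d0 19.8 and 13.8. All 9 genes rose from d0 to d8 in both genotypes. In edgeR's test, AMPK-KO was called lower than WT (adjusted p under 0.05) for 3 of 9 at d0 and for none at d8. Of 6 fibroblast genes, led by Col3a1, the summed level was 3651 and 2262 CPM in WT d0, 3039 and 4696 in AMPK-KO d0, 8036 and 11807 in WT d8, and 11147 and 8182 in AMPK-KO d8. Most of this sum was Col3a1, and other members differed from it. Col1a1 (-4.11, adjusted p = 0.0223) and Lum (-3.98, adjusted p = 0.0401) were called lower at d8 in AMPK-KO against WT. Dcn rose from d0 to d8 in WT (5.48, adjusted p = 0.0143) and in AMPK-KO (4.93, adjusted p = 0.0193), Lum (5.69, adjusted p = 0.0156) and Col3a1 (1.65, adjusted p = 0.0306) rose in WT, and the defining marker Thy1 had at most 4 counts in any library. Of 5 smooth muscle genes, led by Acta2, it was 2415 and 860, 2230 and 1023, 1965 and 1311, and 2732 and 1923 in the same order. How far these shifts in cell state contributed to the results below was not tested, and in bulk RNA fewer cells of a type and less RNA per cell cannot be told apart.

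Per length of transcript, 4 of the 6 binding proteins stood above ligands and receptors in WT and AMPK-KO cells at d0. In WT d0, Igfbp2 led at 1566 ± 313 TPM (counts normalised to transcript length and library size, mean ± SD, n = 2), followed by Igfbp5 (1163 ± 228), Igfbp7 (757 ± 725) and Igfbp6 (572 ± 149), of which Igfbp5 and Igfbp7, and Igfbp7 and Igfbp6, overlapped between replicates. A gap of more than an order of magnitude separated these from Igf2r (20.7 ± 6.23), Igf1r (15.8 ± 1.47), Igfbp4 (14.8 ± 1.90) and Igfbp3 (12.5 ± 0.191), and the ligands came last, with Igf1 at 3.50 ± 4.54 and Igf2 at 2.24 ± 1.18 TPM and overlapping replicates. In WT d8, Igfbp5 led at 1910 ± 61.8 TPM, and Igfbp4 (138 ± 50.2), Igf1 (77.0 ± 6.10) and Igf2 (28.2 ± 8.01) had moved above Igf1r (17.7 ± 4.51). In AMPK-KO d8, Igfbp5 stood at 6692 ± 152 TPM, ahead of Igfbp6 (971 ± 316) and Igfbp2 (910 ± 190), whose replicates overlapped, and Igf2 (89.9 ± 6.15) exceeded Igf1 (4.77 ± 0.608), the reverse of their order in WT d8.

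The comparison of AMPK-KO with WT asked how the loss of AMPK changed expression at each stage, and that of d8 with d0 what differentiation changed in each genotype. With edgeR's quasi-likelihood test (Benjamini-Hochberg adjustment over the 14329 genes tested, threshold 0.05), 1 of the 10 members was called at d0, Igfbp3, lower in AMPK-KO, where 3.52% of all genes were called and 2.83% were lower. At d8, 4 of 10 were called, Igfbp5 and Igf2r higher and Igfbp3 and Igfbp4 lower in AMPK-KO, against 5.35% of all genes, 1.36% higher and 3.98% lower. From d0 to d8, Igf1, Igf2 and Igfbp4 rose in WT (3 of 10, against 12.4% of all genes called, 5.78% higher and 6.58% lower), and Igf2 and Igfbp5 rose in AMPK-KO (2 of 10, against 9.76% called and 4.81% higher). For AMPK-KO against WT the members had a median log2 fold change of -0.34 (d0) and 0.36 (d8), and for d8 against d0 of 0.52 (WT) and 0.26 (AMPK-KO), where the median over all genes lay within 0.039 of 0. The comparisons at d0 and d8 used different libraries, but each d8 against d0 comparison shares its libraries with both of them.

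**Figure D1:**
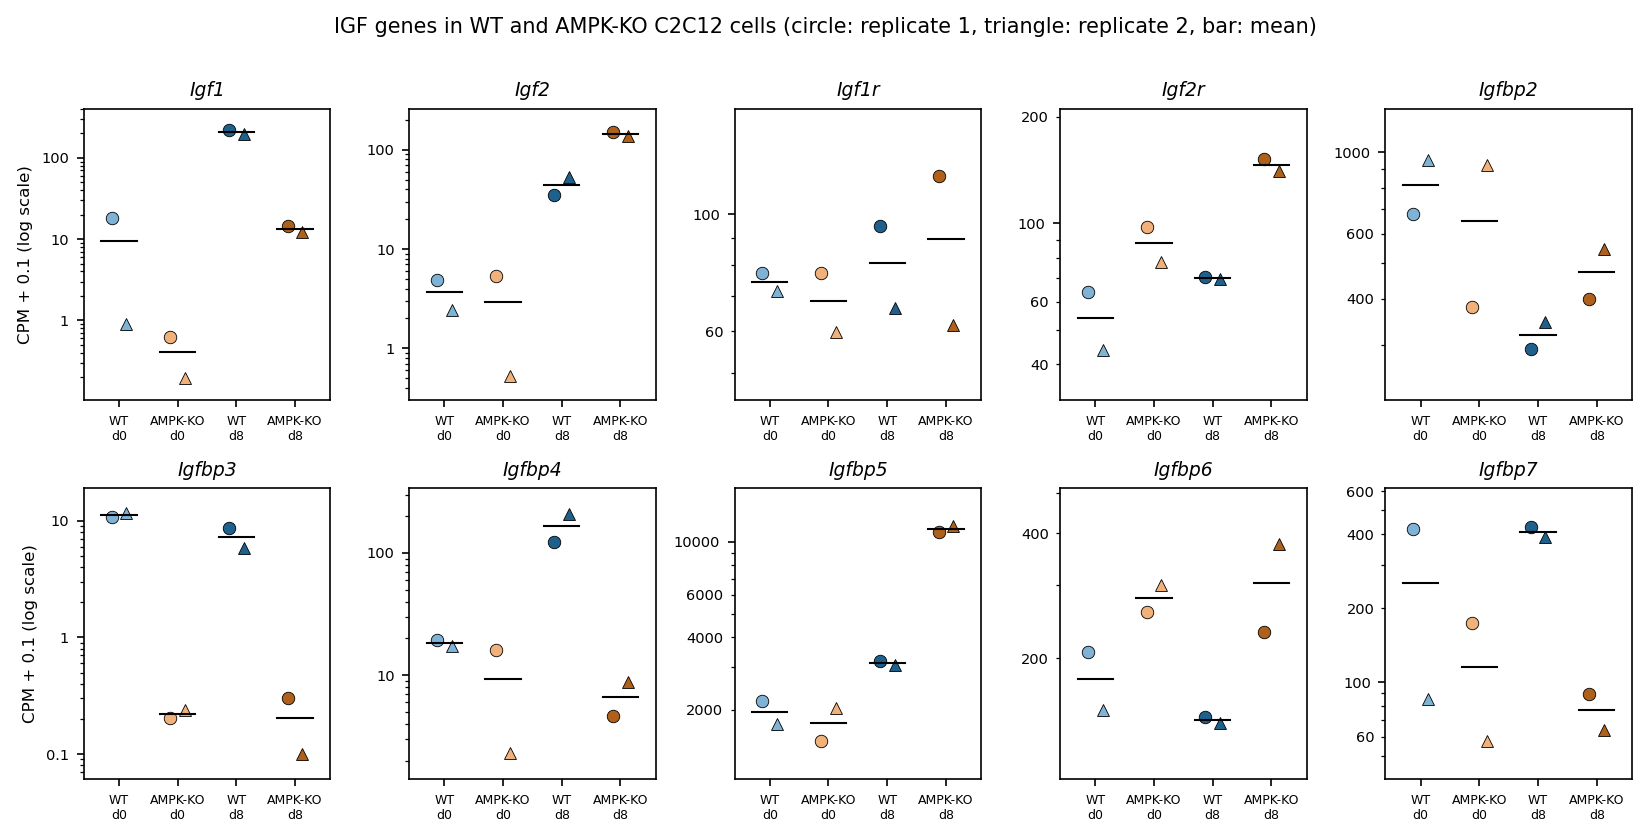
Level of each of the 10 IGF genes in the 8 libraries of WT and AMPK-KO cells, as CPM + 0.1 on a log axis, with replicates as points and the mean as a bar. Igfbp5 in AMPK-KO d8 (10990 and 11577 CPM) lies above all other libraries, and Igfbp3 is near the floor in all 4 AMPK-KO libraries.

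Among the ligands, Igf1 (chr10:87858265-87937042, plus strand) was lowest in AMPK-KO myoblasts and highest in WT myotubes. It read 18.2 and 0.813 CPM in WT d0, 0.523 and 0.0935 in AMPK-KO d0, 218 and 196 in WT d8, and 14.3 and 12.2 in AMPK-KO d8. The WT d8 libraries lay above all others, the AMPK-KO d0 libraries below all others, and WT d0 replicate 1 stood above both AMPK-KO d8 libraries. Igf1 rose from d0 to d8 in WT (log2 fold change 4.44, SE 1.10, adjusted p = 0.0435), and in AMPK-KO the difference was 5.44 (SE 1.41, adjusted p = 0.0552, and 0.0409 with the replicate number as a block). AMPK-KO against WT gave -4.97 (SE 1.41, adjusted p = 0.113) at d0 and -3.96 (SE 1.07, adjusted p = 0.0846) at d8. Neither passed the threshold in this fit, although the groups did not overlap at either stage. Other settings called both, with lowest adjusted p-values over all settings of 2.52e-43 at d0 and 6.39e-48 at d8. These lowest values came from edgeR without a filter on low counts. That setting gave very small p-values, which do not measure the strength of a difference between so few libraries. Without WT d0 replicate 1 the d0 difference shrank to -1.44 and the change over differentiation in WT grew to 7.96, and without WT d0 replicate 2 the latter was 3.52 with an adjusted p of 0.0617. The call in WT was also lost without AMPK-KO d0 replicate 1 (0.0710) or 2 (0.0709), AMPK-KO d8 replicate 1 (0.0516), and WT d8 replicate 1 (0.137) or 2 (0.168), and when the WT libraries were fitted alone (0.0890).

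Igf2 (chr7:142650766-142666816, minus strand) rose over differentiation in both genotypes. It read 4.82 and 2.33 CPM in WT d0, 5.29 and 0.421 in AMPK-KO d0, 34.9 and 52.7 in WT d8, and 150 and 139 in AMPK-KO d8. The d0 groups overlapped, and both AMPK-KO d8 libraries exceeded both WT d8 libraries. The rise from d0 to d8 was 3.61 on the log2 scale in WT (SE 0.864, adjusted p = 0.0397) and 5.68 in AMPK-KO (SE 0.944, adjusted p = 0.0227). The difference between the genotypes at d8 was 1.72 (SE 0.774, adjusted p = 0.242). Over all settings the lowest adjusted p of this difference was 5.72e-10, under the threshold, from edgeR without a filter on low counts. The AMPK-KO call was lost without AMPK-KO d0 replicate 1 (8.38, adjusted p = 0.0860) or 2 (4.78, 0.0730), and the WT call without WT d0 replicate 1 (0.0648) or 2 (0.196) or WT d8 replicate 1 (0.103) or 2 (0.179). Igf2os on the opposite strand overlaps Igf2, with 0 to 94 counts per library, and since the strand setting of the counting was not given in the sources used here, its reads could not be separated from Igf2.

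H19, the noncoding RNA of the imprinted Igf2 locus, lies 72622 bases from Igf2 and was abundant throughout. It read 602 and 673 CPM in WT d0, 1756 and 2317 in AMPK-KO d0, 2437 and 3130 in WT d8, and 7019 and 9495 in AMPK-KO d8. H19 was higher in AMPK-KO at d0 (log2 fold change 1.68, adjusted p = 0.0218) and d8 (1.57, adjusted p = 0.0223) and rose over differentiation in WT (2.13, adjusted p = 0.0143) and AMPK-KO (2.02, adjusted p = 0.0209). Ins2, the insulin gene beside Igf2, rose from 3 and 3 to 75 and 105 counts in WT (adjusted p = 0.0143) and from 0 and 0 to 10 and 9 in AMPK-KO (adjusted p = 0.0227), and was lower in AMPK-KO at d8 (-3.41, adjusted p = 0.0165). Of the 6 genes listed for this locus and for the proteins that bind Igf2 mRNA, 5 were tested, and no Igf2bp gene passed the threshold in these 4 comparisons. Igf2bp3 stood at -2.58 (adjusted p = 0.0864) at d0 and Igf2bp2 at 1.03 (adjusted p = 0.132) at d8 for AMPK-KO against WT.

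Of the receptors, Igf2r was called higher at d8 in AMPK-KO and Igf1r in none of the 4 comparisons. Igf1r (chr7:67952827-68233668, plus strand) read 77.2 and 71.4 CPM in WT d0, 77.3 and 59.6 in AMPK-KO d0, 94.9 and 66.3 in WT d8, and 118 and 61.5 in AMPK-KO d8. All 4 groups overlapped, and its log2 fold changes lay between -0.12 and 0.39 with adjusted p-values of 0.467 to 0.883. Igf2r (chr17:12682406-12769664, minus strand) read 64.0 and 43.8 CPM in WT d0, 97.7 and 77.7 in AMPK-KO d0, 70.6 and 69.7 in WT d8, and 152 and 140 in AMPK-KO d8. Both AMPK-KO libraries exceeded both WT libraries at each stage, with a log2 fold change of 1.06 at d8 (SE 0.213, adjusted p = 0.0372) and 0.70 at d0 (adjusted p = 0.127). AMPK-KO d8 against d0 gave 0.74 (adjusted p = 0.0720, and 0.0363 with the replicate number as a block). The call at d8 was lost when at least 10 counts were required in every library (0.0601) and without AMPK-KO d0 replicate 1 (0.0566) or 2 (0.0553), AMPK-KO d8 replicate 1 (0.138) or 2 (0.0794), and WT d8 replicate 1 (0.189) or 2 (0.207). Airn, the antisense RNA of the Igf2r locus, overlaps it with 13 to 398 counts per library against 808 to 3728 for Igf2r.

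Of the 28 genes listed for signalling below the IGF-I receptor, 27 were tested, and none was called between AMPK-KO and WT at either stage (median log2 fold change -0.08 at d0 and 0.04 at d8). Grb14, an adaptor that inhibits the insulin receptor, came closest, at -3.56 (adjusted p = 0.0527) at d0 and -3.03 (adjusted p = 0.0593) at d8. From d0 to d8 in WT, Tsc2, a brake on mTORC1, rose (0.53, adjusted p = 0.0487) and Irs1, the receptor's docking protein, fell (-1.11, adjusted p = 0.0436). Genes of this list that rose in AMPK-KO included Akt2 (0.96, adjusted p = 0.0232), Foxo3 (0.84, adjusted p = 0.0274) and Pik3ca (0.68, adjusted p = 0.0490), and none fell. Akt2 encodes a kinase below phosphoinositide 3-kinase, of which Pik3ca encodes a catalytic subunit, and Foxo3 a transcription factor that this kinase inhibits. Of 8 genes for sorting by mannose 6-phosphate, only Gnptab, an enzyme that makes the tag, was called, lower at d8 than at d0 in WT (-0.72, adjusted p = 0.0393).

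Among the binding proteins, Igfbp3 and Igfbp4 were called lower in AMPK-KO, Igfbp5 was higher at d8, and Igfbp2, Igfbp6 and Igfbp7 passed in none of the 4 comparisons in edgeR's fit of all 8 libraries with the filter and without a block. Other settings called some of them. DESeq2 called Igfbp6 (adjusted p = 0.00393) and Igfbp7 (0.00293) at d8 and Igfbp2 in WT from d0 to d8 (0.00846), and edgeR without a filter on low counts called these and Igfbp7 at d0 and in WT from d0 to d8. With only the 2 groups compared, edgeR called Igfbp7 at d8 (0.0190) and Igfbp2 in WT (0.0416). Igfbp7 at d8 also passed without WT d0 replicate 1 (0.0488) or 2 (0.0471), Igfbp6 at d8 without AMPK-KO d8 replicate 1 (0.0498), and Igfbp2 in WT without AMPK-KO d0 replicate 1 (0.0420) or 2 (0.0367). Igfbp3 (chr11:7206086-7213923, minus strand), the main carrier of IGF in serum, had 220 and 211 counts in WT d0, 2 and 3 in AMPK-KO d0, 155 and 123 in WT d8, and 5 and 0 in AMPK-KO d8. All 4 AMPK-KO libraries lay at or near the floor of 3 counts. Scaled for depth and summed over 2 libraries, the WT level was 89.1 times that of AMPK-KO at d0 (95% exact interval 37.9 to 276, counting error only) and 63.5 times at d8 (26.9 to 197). The fitted log2 fold changes were -6.41 (SE 0.796, adjusted p = 0.0114) and -5.97 (SE 0.789, adjusted p = 0.0115). The d8 value was -10.14 without AMPK-KO d8 replicate 1, which held all 5 counts of its group, and -5.13 without replicate 2. Without AMPK-KO d0 replicate 1 or 2 the d0 call was lost (0.106 and 0.0851), as was the d8 call without WT d8 replicate 1 or 2 (0.0624 and 0.0510). From d0 to d8, Igfbp3 did not pass in WT (-0.62, adjusted p = 0.498).

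Igfbp4 (chr11:99041244-99054392, plus strand), which inhibits IGF action until it is cleaved, was highest in WT d8. It read 19.5 and 17.1 CPM in WT d0, 16.1 and 2.20 in AMPK-KO d0, 122 and 208 in WT d8, and 4.57 and 8.65 in AMPK-KO d8. Both WT d8 libraries exceeded every other library, and the AMPK-KO groups overlapped across stages. It rose by 3.17 on the log2 scale in WT (SE 0.805, adjusted p = 0.0462), while AMPK-KO d8 against d0 gave -0.47 (adjusted p = 0.731), and AMPK-KO against WT was -4.65 at d8 (SE 0.868, adjusted p = 0.0305) and -1.01 at d0 (adjusted p = 0.514). The d0 value rested on single libraries, being -3.06 without AMPK-KO d0 replicate 1 and -0.21 without replicate 2, and without a filter on low counts it passed (-0.99, adjusted p = 0.00182). The difference between the genotypes' changes was -3.64 (SE 1.11, unadjusted p = 0.0128, adjusted p = 0.892), so it did not pass over all genes, of which 729 were under an unadjusted 0.05 and none under the adjusted threshold (60 with DESeq2). The d8 call was lost without AMPK-KO d8 replicate 1 (0.138) or 2 (0.0674) or WT d8 replicate 1 (0.0903) or 2 (0.133), and the rise in WT without WT d0 replicate 1 (0.107) or 2 (0.213) or WT d8 replicate 1 (0.107) or 2 (0.209), and with the replicate number as a block (0.0507).

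Igfbp5 (chr1:72857932-72874884, minus strand) had its highest levels of this table in AMPK-KO d8. It read 2177 and 1737 CPM in WT d0, 1476 and 2034 in AMPK-KO d0, 3174 and 3052 in WT d8, and 10990 and 11577 in AMPK-KO d8. The genotypes overlapped at d0, and at d8 the lower AMPK-KO library was above the higher WT library. Igfbp5 rose from d0 to d8 in AMPK-KO (log2 fold change 2.68, SE 0.252, adjusted p = 0.0179), while WT gave 0.67 (adjusted p = 0.108). Over all settings the lowest adjusted p of the change in WT was 0.0159, under the threshold. Igfbp5 was higher in AMPK-KO at d8 (1.86, SE 0.244, adjusted p = 0.0113). The difference of the changes was 2.01 (SE 0.338, unadjusted p = 0.000511), with an adjusted p of 0.845. The d8 call was lost without WT d8 replicate 1 (0.0805) or 2 (0.0900), and the rise in AMPK-KO without AMPK-KO d0 replicate 1 (0.124) or 2 (0.0730).

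**Figure D2:**
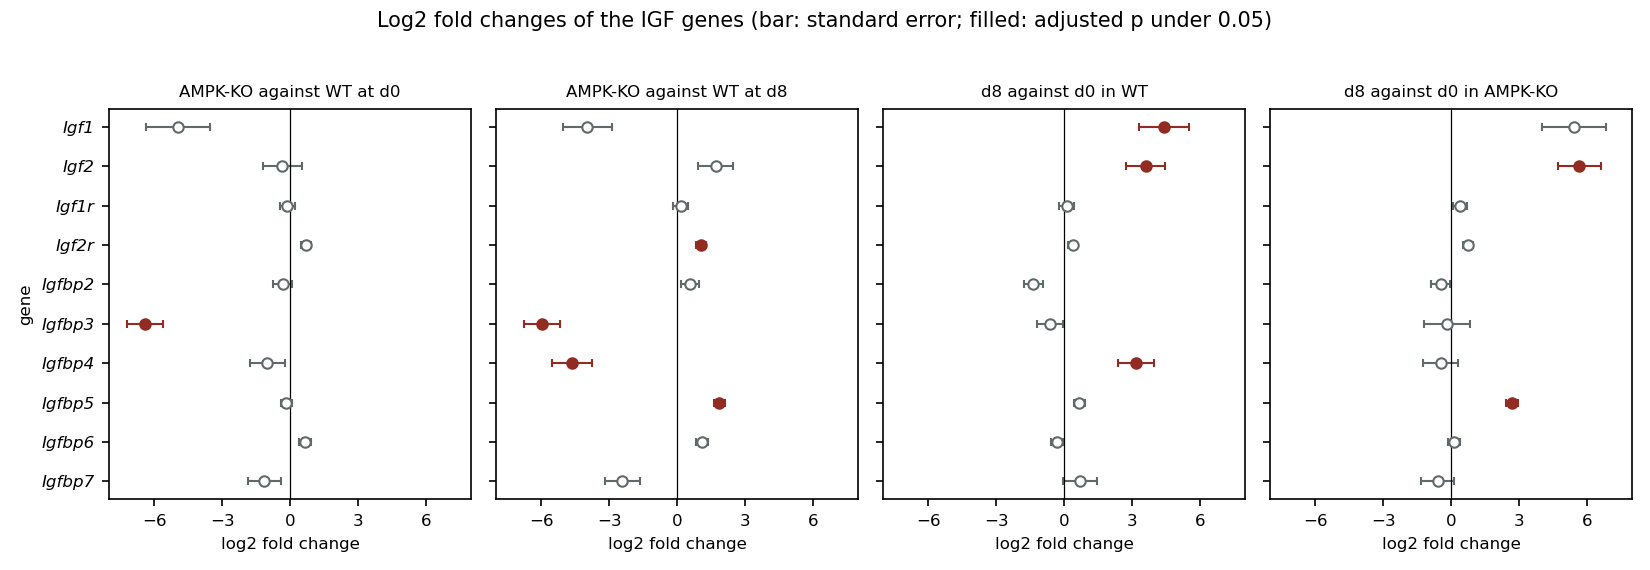
Log2 fold change of each of the 10 IGF genes with its standard error in the 4 comparisons of WT and AMPK-KO cells, 1 panel each, filled where the adjusted p is under 0.05. Igfbp3 stands at -6.41 and -5.97 in AMPK-KO against WT, and Igfbp5 at 1.86 in AMPK-KO against WT at d8 and 2.68 in d8 against d0 in AMPK-KO.

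Igfbp2 (chr1:72824503-72852474, plus strand) read 680 and 953 CPM in WT d0, 379 and 923 in AMPK-KO d0, 292 and 345 in WT d8, and 398 and 547 in AMPK-KO d8. Both WT d8 libraries lay below both WT d0 libraries (log2 fold change -1.36, adjusted p = 0.0764, and 0.0276 with the replicate number as a block), and the AMPK-KO groups overlapped across stages. Igfbp6 (chr15:102144362-102149511, plus strand), whose protein prefers IGF-II, read 206 and 150 CPM in WT d0, 258 and 301 in AMPK-KO d0, 144 and 139 in WT d8, and 231 and 377 in AMPK-KO d8. Both AMPK-KO libraries exceeded both WT libraries at each stage, with log2 fold changes of 0.65 (adjusted p = 0.230) at d0 and 1.10 (SE 0.269, adjusted p = 0.0656) at d8. Igfbp7 (chr5:77349240-77408041, minus strand) read 420 and 85.3 CPM in WT d0, 173 and 57.7 in AMPK-KO d0, 429 and 391 in WT d8, and 89.5 and 64.0 in AMPK-KO d8. The groups overlapped at d0 and were apart at d8 (-2.42, SE 0.772, adjusted p = 0.122, and 0.0441 with the replicate number as a block), and without WT d0 replicate 1 the d0 difference turned from -1.13 to 0.43. Igfbp7 is overlapped on the opposite strand by Polr2b, a gene with 2002 to 4024 counts per library.

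Counted by separation of the groups alone, 5 members were higher and 4 lower in both AMPK-KO libraries at d8, where the groups of 57.9% of all genes did not overlap, and 2 were higher and 3 lower at d0, against 49.4%. From d0 to d8, 5 were higher and 3 lower in WT (61.5% of all genes) and 4 higher in AMPK-KO (59.1%). Of the summed TPM of the 6 binding proteins, Igfbp5 made up 28.5 and 28.4% in WT d0, 29.6 and 29.3% in AMPK-KO d0, 44.0 and 42.6% in WT d8, and 78.6 and 73.6% in AMPK-KO d8. The share was nearly equal between genotypes at d0 and apart at d8. The summed TPM itself was 4645 and 3526 in WT d0, 2783 and 4082 in AMPK-KO d0, 4442 and 4380 in WT d8, and 8379 and 9233 in AMPK-KO d8.

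**Figure D3:**
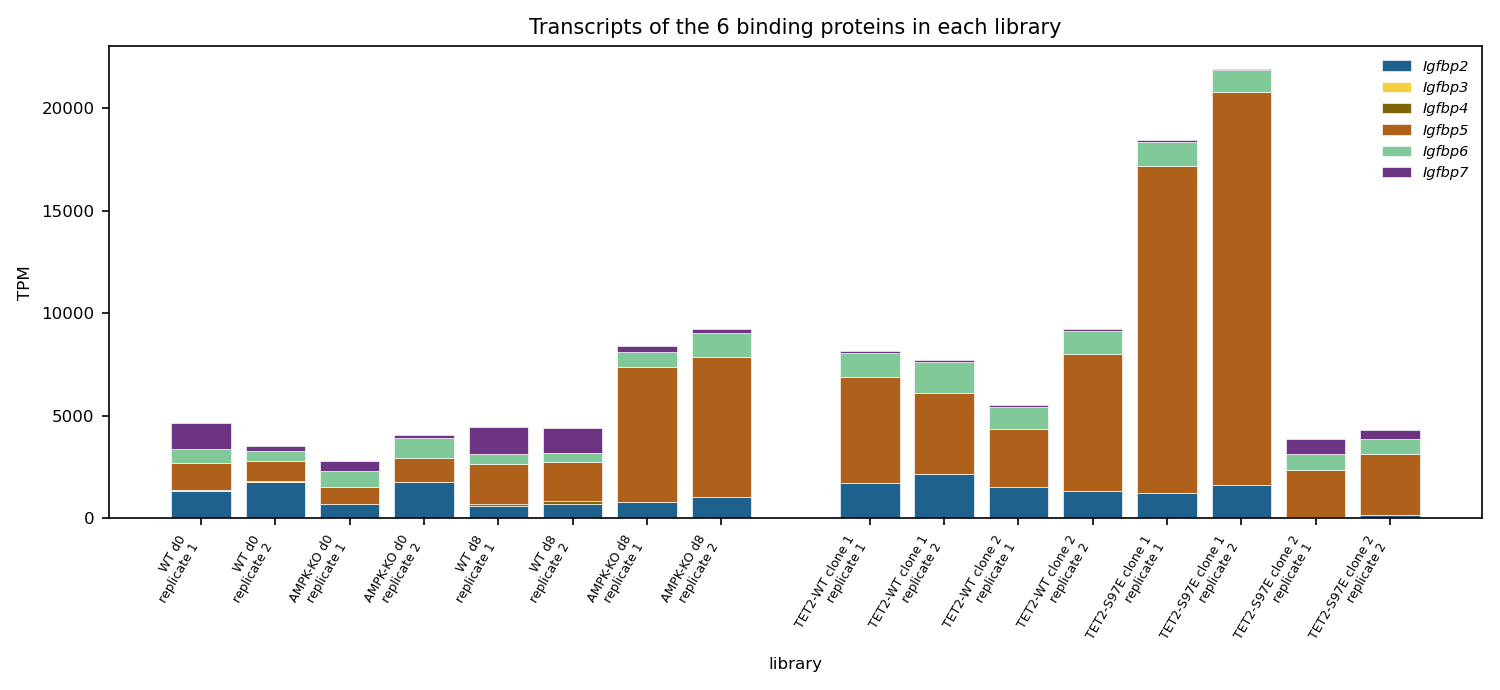
TPM of Igfbp2 to Igfbp7 stacked in 1 bar for each of the 16 libraries, with a gap between the 2 count tables. The bars sum to 8379 and 9233 TPM in AMPK-KO d8 and to 18468 and 21907 in TET2-S97E clone 1, and Igfbp5 takes 73.6 to 78.6% and 86.3 to 87.5% of these.

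Of 10 genes listed for the availability of IGF, among them Igfbp1 and proteases of binding proteins, 7 were tested in this table. Pappa, the protease of IGFBP-4, was lower in AMPK-KO at d0 (log2 fold change -3.08, adjusted p = 0.0242) and d8 (-2.59, adjusted p = 0.0298), with 143 and 74 counts in WT d0, 11 and 15 in AMPK-KO d0, 156 and 115 in WT d8, and 36 and 17 in AMPK-KO d8. Stc1, a relative of the PAPP-A inhibitor stanniocalcin-2, had 129 and 35, 1 and 0, 154 and 39, and 2 and 0 counts in the same order, and was called lower at d8 (adjusted p = 0.0372) but not at d0 (adjusted p = 0.0504). From d0 to d8 in WT, Pappa2, a protease of IGFBP-5, rose from 11 and 3 to 482 and 90 counts (5.42, adjusted p = 0.0195), and so did Htra1, a serine protease (1.52, adjusted p = 0.0369). None of the 7 passed from d0 to d8 in AMPK-KO, where Adamts1 stood at 1.74 (adjusted p = 0.0549). Igfbp1 had no count in any of the 16 libraries.

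The comparison of TET2-S97E with TET2-WT asked whether a phospho-mimicking TET2 changed expression in AMPK-KO myoblasts. No member was called, and several members differed widely between the clones of a genotype. With counts summed per clone, 2 clones against 2, edgeR's quasi-likelihood test called 0 of 15126 genes (0% of all genes), with 1575 at an unadjusted p under 0.05 and 566 called by DESeq2. Of the 10 members, 9 were tested, with a median log2 fold change of 0.78 against -0.01 over all genes, and Igfbp3, with 0 to 3 counts per library, was not tested. The largest differences were Igf1 (4.46, SE 1.77, adjusted p = 0.478), Igf2 (3.12, SE 1.49, adjusted p = 0.565) and Igfbp7 (1.79, SE 0.712, adjusted p = 0.478). These rested on TET2-S97E clone 2, and without it they were 0.06, 0.10 and 0.21. Without TET2-S97E clone 1, which left 1 clone in that genotype, the differences were 5.46 for Igf1, 2.56 for Igfbp7 and -3.78 for Igfbp2. For no member did the libraries of the genotypes separate, against 14.8% of all genes.

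The TET2-S97E clones differed from each other in most of the members tested. In the fit of 4 clones, whose p-values rest on the spread between libraries of a clone, 6 of the 9 tested members were called between TET2-S97E clone 2 and clone 1, where 6.17% of 14459 genes were called, 3.35% higher and 2.82% lower. Igf1, Igf2, Igfbp4 and Igfbp7 were higher and Igfbp2 and Igfbp5 lower in clone 2. Between the TET2-WT clones none of the 9 was called, against 0.858% of all genes, 0.463% higher and 0.394% lower. This count depended on the settings. Igf2 and Igf2r were called between the TET2-WT clones by DESeq2 (adjusted p = 0.0263 and 0.0127) and by edgeR with only the 2 TET2-WT clones fitted (0.00369 and 0.0225), where 985 genes, or 7.25%, were called. The TET2-S97E clones fitted alone gave 407 genes, or 2.94%, and 4 members. Without a filter on low counts, 6.36% of genes and 4 members, Igf1, Igf2, Igf1r and Igf2r, were called between the TET2-WT clones. By separation alone, Igf1, Igf2, Igfbp4 and Igfbp7 were higher and Igfbp2, Igfbp5 and Igfbp6 lower in both libraries of TET2-S97E clone 2, where the clones of 47.6% of all genes did not overlap. In TET2-WT clone 2, Igf1, Igf2, Igf1r and Igf2r were higher and Igfbp2, Igfbp4 and Igfbp6 lower, against 53.8% of all genes. The myotube genes summed to 14.0 and 16.9 CPM in TET2-WT clone 1, 34.8 and 244 in TET2-WT clone 2, 5225 and 1706 in TET2-S97E clone 1, and 1897 and 379 in TET2-S97E clone 2. All 9 had a positive log2 fold change in TET2-S97E against TET2-WT and none was called. The myoblast genes Myod1 (-2.36, adjusted p = 0.00117), Cdh15 (-1.41, adjusted p = 0.00929) and Des (-1.59, adjusted p = 0.0140) were lower in TET2-S97E clone 2 than in clone 1, and Myod1 was higher in TET2-WT clone 2 than in clone 1 (1.32, adjusted p = 0.0388). The summed fibroblast genes, mostly Col3a1, were at 9538 to 16501 CPM over these 8 libraries, but Dcn (1.92, adjusted p = 0.00402) and Lum (3.51, adjusted p = 0.00771) were higher in TET2-S97E clone 2 than in clone 1, and Col1a1 (2.91, adjusted p = 0.0368) and Lum (2.88, adjusted p = 0.0465) in TET2-WT clone 2 than in clone 1. Markers of other cell types were called between the TET2-S97E clones as well. The adipocyte gene Fabp4 had 0 and 2 counts in clone 1 and 30 and 29 in clone 2 (adjusted p = 0.0433), the adipocyte transcription factor gene Cebpa was lower in clone 2 (-0.71, adjusted p = 0.0493), and the endothelial cadherin gene Cdh5 had 14 and 43 counts in clone 1 and 0 and 1 in clone 2 (adjusted p = 0.0143). Mitochondrial genes took 1.14% and 1.00% of counts in TET2-WT clone 1, 1.38% and 2.14% in TET2-WT clone 2, and 2.03% to 2.29% in the 4 TET2-S97E libraries. The part of these markers, of the mitochondrial share and of the myotube genes in the differences of IGF genes was not tested. The smooth muscle genes were at 432 and 519 in TET2-WT clone 1, 771 and 634 in TET2-WT clone 2, 2014 and 1096 in TET2-S97E clone 1, and 2104 and 2109 in TET2-S97E clone 2.

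**Figure D4:**
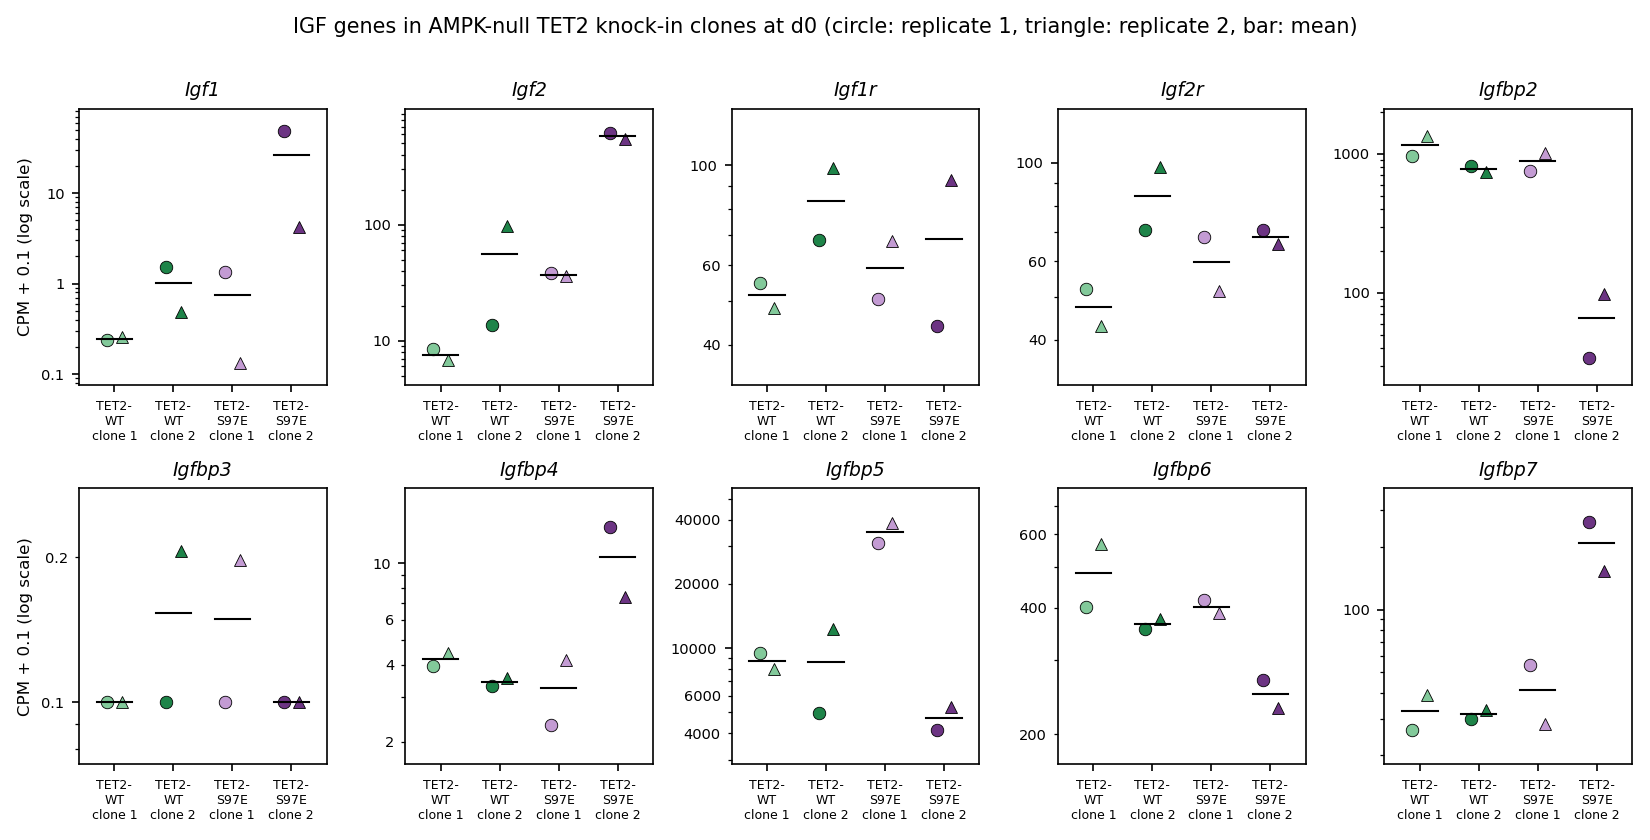
Level of each of the 10 IGF genes in the 8 libraries of AMPK-KO cells with tagged TET2, by clone, as CPM + 0.1 on a log axis, with replicates as points and the mean as a bar. Igf2 reads 612 and 549 CPM in TET2-S97E clone 2, Igfbp5 31251 and 38722 in TET2-S97E clone 1, and Igfbp2 33.9 and 97.9 in TET2-S97E clone 2.

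Igf1 read 0.136 and 0.159 CPM in TET2-WT clone 1, 1.42 and 0.390 in TET2-WT clone 2, 1.26 and 0.0324 in TET2-S97E clone 1, and 48.9 and 4.17 in TET2-S97E clone 2. The last clone lay above all others, and its replicates were far apart. The difference between TET2-S97E clones was 5.51 (SE 1.34, adjusted p = 0.0442), and it was 2.73 (adjusted p = 0.272) without TET2-S97E clone 2 replicate 1 and 9.51 (0.0330) without TET2-S97E clone 1 replicate 1, when 1 count was left in clone 1. That call was also lost without TET2-S97E clone 1 replicate 2 (0.136) or TET2-WT clone 1 replicate 1 (0.115) or 2 (0.117), and with the 2 TET2-S97E clones fitted alone (0.138). Igf2 read 8.30 and 6.65 CPM in TET2-WT clone 1, 13.6 and 97.9 in TET2-WT clone 2, 38.0 and 35.8 in TET2-S97E clone 1, and 612 and 549 in TET2-S97E clone 2. It differed between the TET2-S97E clones by 3.98 (SE 0.709, adjusted p = 0.0125, and 0.0597 without TET2-S97E clone 1 replicate 2), and between the TET2-WT clones by 2.91 (SE 0.695, adjusted p = 0.0917), or 0.87 without TET2-WT clone 2 replicate 2. Between the TET2-S97E clones H19 ran the other way, at 8779 and 8146 CPM in TET2-S97E clone 1 and 3031 and 3228 in TET2-S97E clone 2 (-1.44, adjusted p = 0.00746). Between the TET2-WT clones it did not, at 1392 and 1597 CPM in clone 1 and 2060 and 3259 in clone 2 (0.83, adjusted p = 0.118). The ratio of H19 to Igf2 CPM was 231 and 227 in TET2-S97E clone 1, 4.95 and 5.88 in TET2-S97E clone 2, 168 and 240 in TET2-WT clone 1, and 151 and 33.3 in TET2-WT clone 2.

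The receptors read 44.0 to 98.4 CPM for Igf1r and 42.7 to 97.6 for Igf2r over the 8 libraries. Neither was called by edgeR in the 3 comparisons with the filter and all clones fitted, though between the TET2-WT clones other settings called Igf2r or both, as given above. The differences between the TET2-S97E clones were 0.21 (adjusted p = 0.818) and 0.19 (adjusted p = 0.718). Between the TET2-WT clones both receptors were higher in both libraries of clone 2, by 0.70 (adjusted p = 0.264) and 0.83 (adjusted p = 0.106). Among the 27 signalling genes tested, Grb14 and Foxo1 were called between the TET2-S97E clones. Grb14 read 0 and 0.0324 CPM in TET2-S97E clone 1 and 11.4 and 8.67 in TET2-S97E clone 2 (adjusted p = 0.000492), and Foxo1, a transcription factor that the pathway inhibits, was higher by 0.95 (adjusted p = 0.0371) in clone 2. None of the 27 was called between the TET2-WT clones or between the genotypes.

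Igfbp2 and Igfbp5, the neighbouring genes whose promoters are given above, were both lower in TET2-S97E clone 2 than in clone 1. Igfbp5 read 9524 and 7975 CPM in TET2-WT clone 1, 4988 and 12312 in TET2-WT clone 2, 31251 and 38722 in TET2-S97E clone 1, and 4146 and 5275 in TET2-S97E clone 2. TET2-S97E clone 1 was above all other clones, and the difference between the TET2-S97E clones was -2.89 (SE 0.384, adjusted p = 0.00306). Igfbp2 read 963 and 1352 CPM in TET2-WT clone 1, 821 and 746 in TET2-WT clone 2, 755 and 1011 in TET2-S97E clone 1, and 33.9 and 97.9 in TET2-S97E clone 2. Here it was TET2-S97E clone 2 that stood apart, below all others (-3.74, SE 0.451, adjusted p = 0.0023). The pair therefore differed in which clone left the rest. The Igfbp5 to Igfbp2 ratio of TPM was 12.7 and 11.8 in TET2-S97E clone 1, 37.6 and 16.6 in TET2-S97E clone 2, and 1.81 to 5.07 in the TET2-WT libraries.

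Igfbp7 read 26.3 and 39 CPM in TET2-WT clone 1, 29.7 and 33.0 in TET2-WT clone 2, 53.9 and 28.1 in TET2-S97E clone 1, and 262 and 152 in TET2-S97E clone 2. The last clone was above all others (2.34 between the TET2-S97E clones, SE 0.357, adjusted p = 0.00614). Igfbp4 read 3.85 and 4.37 CPM in TET2-WT clone 1, 3.21 and 3.44 in TET2-WT clone 2, 2.22 and 4.08 in TET2-S97E clone 1, and 13.8 and 7.30 in TET2-S97E clone 2, again highest in the last clone (1.72, SE 0.392, adjusted p = 0.0344). The Igfbp4 call was lost without TET2-S97E clone 1 replicate 1 (0.156), TET2-S97E clone 2 replicate 1 (0.183), TET2-WT clone 1 replicate 1 (0.0873) or 2 (0.0886), and with the 2 TET2-S97E clones fitted alone (0.118). The calls of Igfbp2, Igfbp5 and Igfbp7 held under all 15 alternatives that gave a value, with highest adjusted p-values of 0.0296, 0.0192 and 0.0430. Igfbp6 read 402 and 568 CPM in TET2-WT clone 1, 357 and 376 in TET2-WT clone 2, 417 and 388 in TET2-S97E clone 1, and 269 and 230 in TET2-S97E clone 2 (-0.69, adjusted p = 0.0730). Over all settings the lowest adjusted p of Igfbp6 between the TET2-S97E clones was 0.00954, under the threshold. Igfbp3 had 0 counts in 6 of these 8 libraries and 3 in the other two, at the floor of 3 counts.

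Among the 6 availability genes tested in these clones, Adamts1, a secreted protease, was higher in clone 2 than in clone 1 of TET2-S97E (1.89, adjusted p = 0.000829) and of TET2-WT (1.12, adjusted p = 0.0249). It read 79.8 and 65.4 CPM in TET2-WT clone 1, 171 and 145 in TET2-WT clone 2, 83.6 and 74.9 in TET2-S97E clone 1, and 299 and 289 in TET2-S97E clone 2. Pappa had 0 and 0 counts in TET2-S97E clone 1 and 57 and 81 in TET2-S97E clone 2 (adjusted p = 0.00295). Stc1 had no count in these 8 libraries. None of the 6 was called between the genotypes, where Stc2 came closest (1.71, adjusted p = 0.277). Igf2bp1, which binds Igf2 mRNA, was at 0 and 0.0324 CPM in TET2-S97E clone 1 and 1.01 and 1.24 in clone 2 (adjusted p = 0.0181). The 8 sorting genes had no call in the TET2 table.

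Over all 16 libraries, the genes most like 3 members were sought by the root mean square difference of log2(CPM + 1), centred within each table, among 13499 genes. For Igf1 these were Cilp (0.898) and Trabd2b (0.990), against a median of 2.36 over all genes and 2.34 for a gene that is flat over the libraries. For Igf2 they were Apoe (0.968) and Asb2 (0.985), against a median of 2.37 and 2.35 for a flat gene, and for Igfbp5 Dll1 (0.526) and Lrrc74b (0.530), against 1.15 and 1.10. Lrrc74b was low, at 0 to 8.16 CPM over the libraries, and Dll1 was at 3.45 to 78.3 CPM. The names depend on the constant added, since with 5 CPM in place of 1 only 2 of the 6 nearest genes were the same. A smaller value means a closer pattern, and the distances of the first and second gene differed little in each case. These are descriptions over libraries that share clones and cultures.

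**Figure D5:**
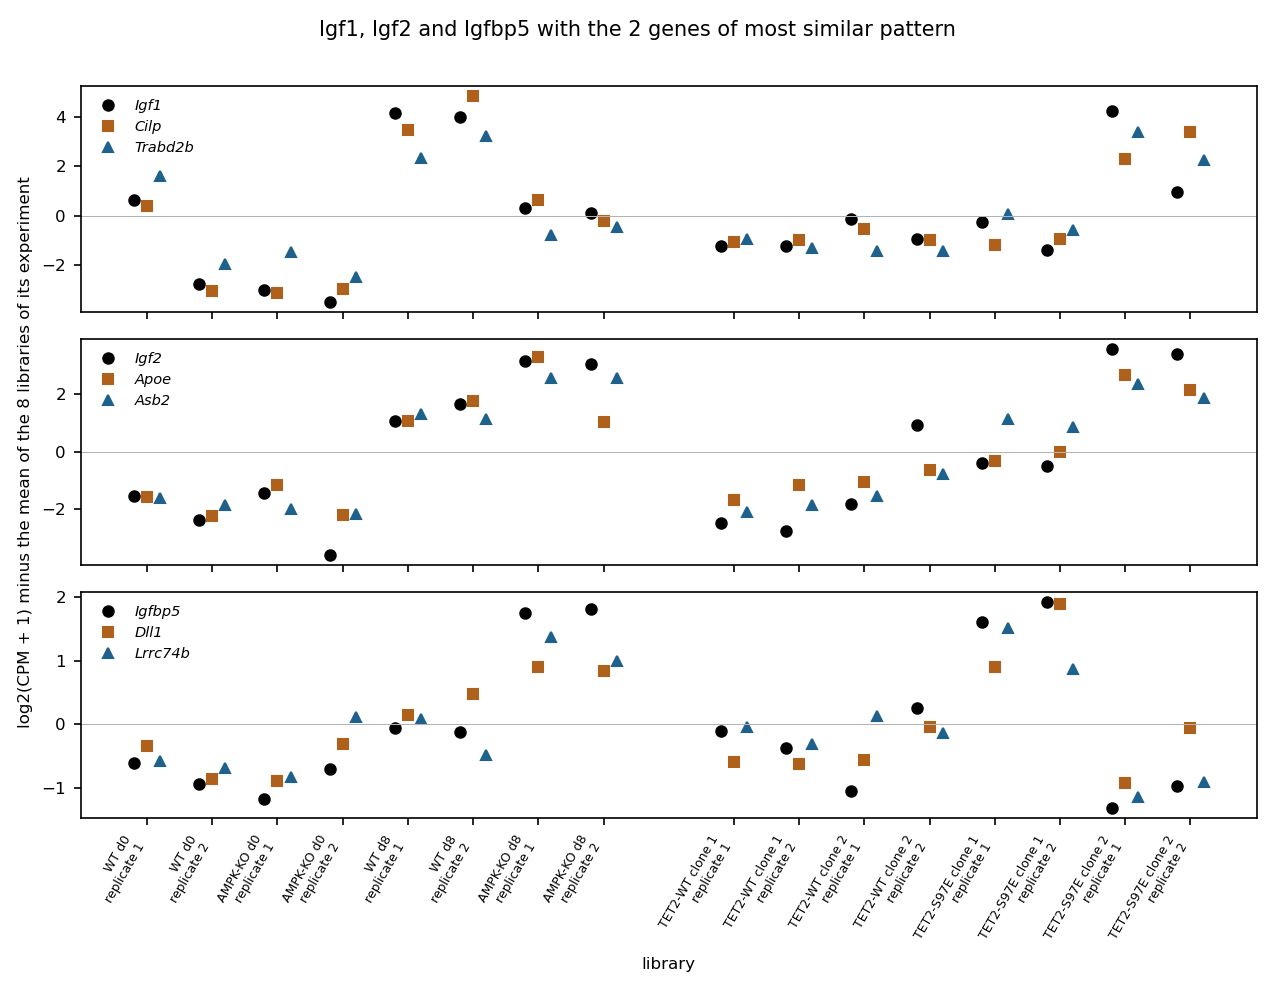
Centred log2(CPM + 1) of Igf1, Igf2 and Igfbp5 with the 2 genes of most similar pattern at this constant in each of the 16 libraries, 1 panel per gene. Cilp and Trabd2b are high with Igf1 in WT d8 and in TET2-S97E clone 2, and Dll1 and Lrrc74b are high with Igfbp5 in AMPK-KO d8 and in TET2-S97E clone 1.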

How the data were processed

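RNA-seq was measured in 16 libraries of C2C12 cells. The authors trimmed reads with Trim Galore (0.4.5 per the labels), aligned them to GRCm38 with STAR 2.5.3a and deposited raw counts per gene from featureCounts 1.5.3 with GENCODE M12, in 2 tables of 8 libraries. Gene positions and lengths came from GENCODE M21 on the same build (49326 of 49585 identifiers found). Each table was normalized on its own (TMM) and filtered with filterByExpr, so levels are compared only within a table. edgeR 4.0.16 in R 4.3.3 fitted a mean per group, with Benjamini-Hochberg adjustment over all genes tested and a threshold of 0.05. TET2 genotypes were compared on counts summed per clone. An exact permutation test of 2 against 2 cannot give a two-sided p below 0.33. TPM was computed from the counts and exon lengths. Tested on simulated counts with 200 genes changed 4-fold, the fit recovered 74% for AMPK-KO against WT at d0 (13970 genes), 61% for the clone sums (14770) and 78% for the clone contrast (14150). It also called 12, 21 and 9 unchanged genes in the same order. DESeq2 recovered 85.5% at d0 and 81% for the clone sums but called 63 and 69 unchanged genes. More of its calls were therefore false than with edgeR in these simulations. Library totals were 17883417 to 37790358 counts. Alternatives were DESeq2 1.42.0, limma 3.58.1 with voom, other scalings and filters, a replicate block, and leaving out each library or clone. Genes named were the 10 members, the edited genes, of each other list the 3 genes with the lowest adjusted p, marker lists, and the 2 genes nearest in pattern; Pik3ca, Igf2bp1 and genes named beside a count were added after their values were seen. The members and lists were chosen with earlier results of these data known. One result of the signalling list is not reported here.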

Additional observations from a re-analysis of the deposited data

Results flagged for a closer look

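Igfbp5 and Igfbp4 drew attention because the test of the difference between the d0 to d8 changes of AMPK-KO and WT was under 0.05 before adjustment, as it was for 729 of 14329 genes, and neither passed after it. For Igfbp5 the difference of the log2 fold changes was 2.01 (SE 0.338, unadjusted p = 0.000511), with a change of 2.68 in AMPK-KO and 0.67 in WT. For Igfbp4 it was -3.64 (SE 1.11, unadjusted p = 0.0128), with -0.47 in AMPK-KO and 3.17 in WT, and it was -1.61 without AMPK-KO d0 replicate 1. With any 1 library left out, the difference ranged from 1.78 to 2.31 for Igfbp5. With edgeR's quasi-likelihood test and Benjamini-Hochberg adjustment over all genes tested, the values were 0.845 and 0.892 (adjusted p, range over all settings 3.29e-06 to 0.999993 and 9.22e-21 to 0.999993), and both passed with DESeq2 (adjusted p = 3.29e-06 and 0.0433). The 9.22e-21 of Igfbp4 came from edgeR without a filter on low counts, a setting that gave very small p-values.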

How the results depend on the processing

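No alternative scaling shifted the median of all genes by over 0.1 on the log2 scale. DESeq2 called 1393 genes (AMPK-KO against WT at d0), 1656 (d8), 2762 (d8 against d0 in WT), 2532 (in AMPK-KO), 60 (difference of the changes), 566 (TET2-S97E against TET2-WT), 1383 (TET2-S97E clones) and 894 (TET2-WT clones), with 2, 7, 5, 4 and 2 members called in the first 5, 7 between the TET2-S97E clones and 2 in the last. Among these were Igf1 at d0 (adjusted p = 0.0102) and d8 (0.0387), Igfbp6 (0.00393) and Igfbp7 (0.00293) at d8. Without a filter on low counts edgeR called 2026, 2503, 3293, 3039, 449, 113, 1680 and 1627 genes in that order, with 5, 8, 5, 4 and 4 members in the first 5, 7 between the TET2-S97E clones and 4 in the last. With at least 10 counts in every library it called 204 genes (1.78%) at d0 and 277 (2.41%) at d8 between the genotypes, and 0 and 2 members there. From d0 to d8 it called 1 member in WT, against 1525 genes (13.3%), and 1 in AMPK-KO, against 1431 (12.5%). Igfbp3, Igf1 and Igf2 had fewer than 10 counts in an AMPK-KO d0 library, so these comparisons did not test them under this filter. With only the 2 groups compared it called 335 genes at d0, 788 in d8 against d0 in AMPK-KO and 407 between the TET2-S97E clones. At d8 it called 7 members, against 771 of 13744 genes (5.61%). Between the TET2-WT clones it called 2 members, against 985 genes (7.25%). For TET2-S97E against TET2-WT, 8 libraries with genotype alone gave 938 genes, with the replicate block 895, and there were 166 with limma-voom and a random clone term, and no member was called in any of these. With the pseudocount of 5 CPM, 2 of the 6 nearest genes were the same.

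Signs turned for Igf2r in TET2-S97E against TET2-WT with limma-voom (0.022) and for Igfbp5 between the TET2-WT clones without a filter (0.0016), with at least 10 counts (0.0093) and with 2 groups (0.012), from -0.09 and -0.02.

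Replicate numbers were shared between groups by label only. Samples with the same number had positively correlated deviations among WT and AMPK-KO groups (0.130 to 0.393). Among TET2 clones the correlations ran from -0.068 to 0.552. TET2-WT clone 1 was at 0.029 with TET2-WT clone 2 and at -0.068 with TET2-S97E clone 2. With the replicate number as a block, 4 members were called from d0 to d8 in AMPK-KO, against 1854 of all genes (12.9%). Between the TET2-S97E clones 1540 genes were called, and between the TET2-WT clones 677. Igf1 (0.0409) and Igf2r (0.0363) passed in AMPK-KO, Igfbp2 (0.0276) in WT and Igfbp7 (0.0441) at d8 between genotypes, and Igfbp4 in WT did not (0.0507).

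Leaving out 1 library or clone, where a lone sample was assumed to vary like the other groups, the genes called ranged over 17 to 613 (AMPK-KO against WT at d0), 107 to 902 (d8), 0 to 2260 (d8 against d0 in WT), 0 to 1737 (in AMPK-KO), 0 to 6 (difference of changes), 0 to 184 (TET2-S97E against TET2-WT), 472 to 1014 (TET2-S97E clones) and 0 to 313 (TET2-WT clones), and members called over 0 to 2, 0 to 6, 0 to 3, 0 to 4, 0 to 0, 0 to 3, 4 to 6 and 0 to 1. From d0 to d8 in WT, 0 genes were called without WT d0 replicate 2 or WT d8 replicate 2 and 2 without WT d8 replicate 1, and in AMPK-KO 0 without AMPK-KO d0 replicate 1 and 1 without AMPK-KO d0 replicate 2. Log2 fold changes that turned sign ranged as follows. At d0 between genotypes these were Igf2 -3.08 to 0.53, Igf1r -0.33 to 0.033, Igfbp2 -1.13 to 0.17, Igfbp5 -0.43 to 0.048 and Igfbp7 -2.13 to 0.43. At d8 between genotypes these were Igf1r -0.37 to 0.51. In d8 against d0 in WT these were Igf1r -0.19 to 0.33 and Igfbp7 -0.021 to 2.25. In d8 against d0 in AMPK-KO these were Igf1r -0.14 to 0.76, Igfbp2 -0.99 to 0.33, Igfbp3 -4.37 to 0.68, Igfbp4 -1.28 to 1.56, Igfbp6 -0.30 to 0.44 and Igfbp7 -1.16 to 0.39. In the difference of the changes these were Igf1 -2.51 to 2.59, Igf1r -0.23 to 0.64 and Igfbp3 -3.72 to 1.3. In TET2-S97E against TET2-WT these were Igf1r -0.37 to 0.38, Igf2r -0.44 to 0.42, Igfbp4 -0.17 to 1.38 and Igfbp5 -0.88 to 2.02. Between the TET2-S97E clones these were Igf1r -0.42 to 0.61. Between the TET2-WT clones these were Igfbp5 -0.81 to 0.49 and Igfbp7 -0.32 to 0.25. Of the log2 fold changes of members under other alternatives, 464 kept direction and side of the threshold, 45 came to pass it, 5 no longer passed and 4 turned sign, and with a library or clone left out 553, 17, 43 and 39. Depth limited Igfbp3 in AMPK-KO cells (0 to 5 counts) and Igf1 in AMPK-KO d0 (10 and 2 counts).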
